A study of Mus musculus with 6 samples.

Results

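The peaks described here are the ATF4-bound regions whose nearest transcription start site (TSS) belongs to a translation factor or a ribosomal protein. A peak was included when the gene name that the authors' annotation gave it began with Eif (initiation factors), Eef (elongation factors), Rpl (large ribosomal subunit) or Rps (small ribosomal subunit). Names beginning with Eif2ak, Eif4ebp or Rps6k, which are kinases and eIF4E-binding proteins, were left out. This gave 83 of 17462 peaks, at 40 of the 8863 genes that the lists name. The prefix also took in a few proteins that act on the machinery without being part of it. They were Eef2k, a kinase of eEF2, and Rps19bp1, a binding partner of the protein Rps19, and a strict list without them held 38 genes. That list still holds Eef1e1, a protein of the multi-tRNA synthetase complex that carries an elongation factor's name. Of the names, Rps4l is annotated as a pseudogene in RefSeq.

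ATF4 ChIP-seq was performed on mouse embryonic fibroblasts (MEFs) of strain 129S6/SvEvTac, with the ATF4 antibody sc-200. Wild-type (WT) cells and cells lacking GCN2 (GCN2-/-, here GCN2 KO) were kept for 24 h in complete DMEM (+Leu) or in DMEM without leucine (-Leu). Each of the 4 conditions is 1 library, made from primary MEF chromatin pooled over 2 experiments, and by their headers the -Leu lists were called against input DNA from cells with leucine. Binding peaks hold no expression, so the cell type and the loss of GCN2 could not be checked against marker genes. Without replicates no difference could be tested, and the 95% Wilson intervals given with shares and ratios cover counting error only. The lists give no sequencing depth, so a difference in the number of peaks between conditions and a difference in depth between libraries cannot be told apart. Each peak has a score, a whole number from 13 up whose scale is not stated in the sources used here, and a window of 150 bp to either side of its summit in mm10.

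Translation begins when initiation factors load the methionyl initiator tRNA and the small ribosomal subunit onto an mRNA, continues with elongation factors that deliver aminoacyl-tRNAs and move the ribosome, and is carried out by a ribosome built from large- and small-subunit proteins. Shortage of an amino acid activates the kinase GCN2, which phosphorylates the factor eIF2, lowers general initiation and raises translation of the transcription factor ATF4. Many mRNAs of ribosomal proteins and elongation factors are TOP mRNAs, whose translation is held back by LARP1 when nutrients are short. ATF4 binds DNA as a dimer, often with a C/EBP protein, at the C/EBP-ATF element, whose core is TGATGCAA.

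TGATGCAA, searched on both strands, lay within 50 bp of the peak center in 9 peaks, and all of these were at 5 initiation factor genes. Every initiation factor peak with a score of 93 or more held it, a cutoff read from these same peaks. The share of all peaks at that score with the core was not counted. Core peaks with lower scores were at Eif2s2 (45) and at Eif1 in GCN2 KO -Leu (20). The 5 sites are shown because sequences were printed for near peaks with the core. Each is given as 30 bases of mm10 on the strand of the match, with the core in capitals.
Eif1, chr11:100320500-100320529, minus strand, intron 1: ccccacccggcTGATGCAAcctaccggaag
Eif2s2, chr2:154892804-154892833, minus strand, 5′ UTR in exon 1: ctccctttcgcTGATGCAAgagcctagtgc
Eif3a, chr19:60795507-60795536, minus strand, upstream of the gene: ccaaggctgcaTGATGCAAcatgggctggc
Eif3c, chr7:126565893-126565922, plus strand, intron 2: gccttaagagcTGATGCAAtactaagcaac
Eif4g2, chr7:111080190-111080219, minus strand, coding exon 4: aaagaacgacaTGATGCAAtcttcaggaaa

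Only the core is common to all of them by construction, and the flanking bases differ from gene to gene. The middle of the core lay 87 bp downstream of the gene start in Eif2s2, 458 bp in Eif3c, 566 bp in Eif1 and 2825 bp in Eif4g2, whereas at Eif3a it was 4829 bp upstream. Its distance from the peak center was 1 bp at Eif3c, 3 bp at Eif2s2 and 17 bp at Eif4g2. At Eif3a it was 3 bp in WT +Leu and 1 bp in WT -Leu. For Eif1, where a peak was listed in every condition, the distance was 9 bp in WT +Leu, 12 bp in WT -Leu, 41 bp in GCN2 KO +Leu and 15 bp in GCN2 KO -Leu.

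The core was found in 2 of 23 WT +Leu peaks (8.7%, where 2.71% of all peaks in that list held it). It was found in 5 of 24 WT -Leu peaks (20.8%, against 6.95%), in 1 of 20 GCN2 KO +Leu peaks (5%, against 1.07%) and in 1 of 16 GCN2 KO -Leu peaks (6.25%, against 1.09%). Over the 4 lists this was 9 of 83 peaks (10.8%, 5.81 to 19.3) beside 3.68% of all peaks. None of the 166 windows placed 1 kb to either side of these peaks held it within 50 bp of the center. Beside all peaks it was also rare, in 75 of 34816 such windows, so its absence here is not particular to these peaks. Within 5 kb of a TSS the share was 9 of 29 (31%, 17.3 to 49.2) beside 7.07% of all such peaks, and these 9 peaks are 5 sites, since the Eif1 site was listed 4 times and the Eif3a site in both WT lists. The lists place 8 peaks within 5 kb of a gene named Eef and 7 within 5 kb of a gene named Rpl or Rps. None held the core or TGATGNAA, where N is any base, in its window. Of all near windows 13.9% held TGATGNAA, and so few peaks cannot show a lower share. At any distance TGATGNAA was in 12 of 83 windows (14.5%, 8.47 to 23.6), and in 9.6% of all windows. The palindromic cAMP response element TGACGTCA was in 0 of 83 windows (0 to 4.42%) and in 0.247% of all windows.

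Gene starts were examined in the same way. In the window from 250 bp before to 50 bp after the RefSeq start, TGATGCAA occurred in 0 of the 156 protein-coding translation genes (0 to 2.4%) and in 168 of all 21774 coding genes (0.772%). TGATGNAA occurred in 1 of the 156, Eif2s3x, which encodes the gamma subunit of eIF2 and had no peak within 5 kb, and in 3.57% of all coding genes. The 5 cores printed above thus lay outside this window.

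In WT cells deprived of leucine, a larger share of initiation factor genes than of all coding genes had a peak near the start. A peak within 5 kb of the TSS was listed for 3 of their 49 coding genes in WT +Leu (6.12%, 2.1 to 16.5), where 3.05% of all coding genes had one. In WT -Leu there were 7 (14.3%, 7.1 to 26.7), where the share of all coding genes, 4.42%, lies below the interval. The GCN2 KO lists held 2 each (4.08%, 1.13 to 13.7), where the shares of all coding genes were 2.28% with leucine and 1.62% without it. Over the 4 lists, 9 initiation factor genes had a near peak (18.4%, 9.98 to 31.4) against 9.77% of coding genes, and the lower bound of that interval lies just above the background.

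Elongation factors were taken as the 16 coding genes whose names begin with Eef. Some of them, such as Eef2k, Eef1e1 and Eef1akmt4, are not elongation factors, so the shares are those of a name group. This group had 1 gene with a near peak in each WT list (6.25%, 1.11 to 28.3) and 2 in each GCN2 KO list (12.5%, 3.5 to 36). Over the 4 lists this was 4 genes (25%, 10.2 to 49.5), again with the background just under the lower bound, and of these Eef1a1 and Eef1a2 are elongation factors while Eef1e1 and Eef2k are not. The ribosomal protein shares were below the background in every list, and their intervals include it. Of the 91 coding genes taken by the names Rpl and Rps, a near peak was listed for 1 in WT +Leu (1.1%, 0.194 to 5.96) and 3 in WT -Leu (3.3%, 1.13 to 9.25). It was listed for 2 in GCN2 KO +Leu (2.2%, 0.605 to 7.66) and 1 in GCN2 KO -Leu (1.1%). The 1 in WT +Leu was Rps19bp1, which is not a ribosomal protein, so these shares too are those of a name group. All translation genes together gave 5 of 156 with leucine and 11 without it in WT cells (3.21% and 7.05%), and 6 and 5 in GCN2 KO cells (3.85% and 3.21%). The interval in WT -Leu, 3.98 to 12.2, includes the background of 4.42%.

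**Figure D1:**
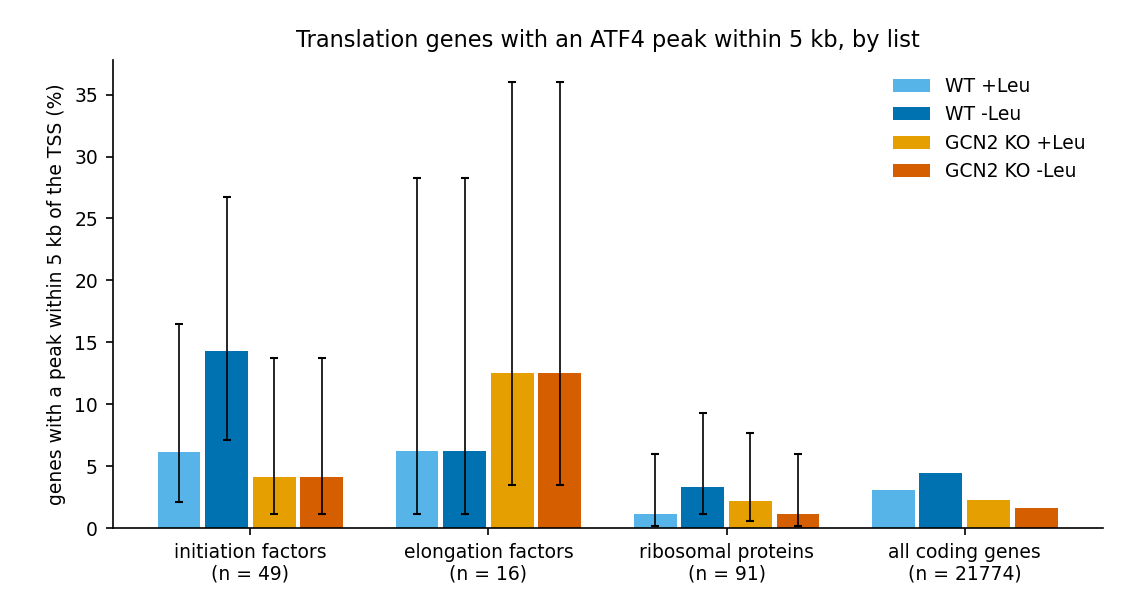
The bars give the percentage of the coding genes of each group, taken by name, with an ATF4 peak within 5 kb of the TSS in each of the 4 lists. Lines are 95% Wilson intervals (no interval is drawn for all coding genes). The bar for initiation factors in WT -Leu, 14.3%, is the highest, and the bars for ribosomal proteins lie between 1.1% and 3.3%.

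By the nearest gene, near peaks of initiation factors were spread over all their complexes, and the counts are small. Of the 14 genes of eIF3, the scaffold that holds the small ribosomal subunit ready for mRNA, 4 had a near peak in some list (28.6%, 11.7 to 54.6, against 9.77% of coding genes). These were 2 in WT +Leu, 3 in WT -Leu and none in the lists of GCN2 KO cells, although a GCN2 KO +Leu peak listed for another gene lay within 5 kb of Eif3k. For the other complexes the intervals include the background. For eIF2, which carries the initiator tRNA, it was 1 of 6 genes (16.7%, 3.01 to 56.4), and for eIF2B, which recharges eIF2 with GTP, 1 of 5 (20%, 3.62 to 62.4). The cap-binding eIF4 group gave 2 of 14 (14.3%, 4.01 to 39.9), and the eIF1, eIF5 and eIF6 genes gave 1 of 10 (10%, 1.79 to 40.4).

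Eif1 encodes eIF1, which helps the scanning ribosome choose the right start codon, and it was the one translation gene with a near peak in every list. The peaks lay in intron 1, in an annotated CpG island on chromosome 11 between 100320324 and 100320680, with centers at most 56 bp apart. In WT cells they scored 105 with leucine and 239 without it, and in GCN2 KO cells 127 with leucine and 20 without it. Leucine deprivation thus went with a higher score in WT cells and a lower one in GCN2 KO cells. Expressed as the place within its own list, the Eif1 peak had a percentile of 98.4 with leucine and 96.1 without it in WT cells, and of 99.5 and 9.51 in GCN2 KO cells. On that measure the value in WT cells was slightly lower without leucine, and it had almost no room to be higher. The value in GCN2 KO cells was lower, as with the score. A further peak 22335 bp upstream of Eif1, listed in GCN2 KO -Leu only, scored 35.

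The score ratio of -Leu to +Leu at Eif1 was 2.28 in WT cells, where the 308 peaks common to both WT lists had a median ratio of 2.36 (interquartile range 1.27 to 4.56). In GCN2 KO cells it was 0.157, and none of the other common peaks, of 98 in all with a median ratio of 1 (0.672 to 1.25), had a ratio as low. The WT value was therefore an ordinary one for that pair of lists, and the GCN2 KO value was the lowest. Scores were not normalized between libraries.

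Eif3a encodes the largest subunit of eIF3. Its peak lay upstream of the gene in an annotated DNA transposon (RCHARR1) and scored 93 in WT +Leu cells, at a distance of 4832 bp, and 437 in WT -Leu cells, at 4830 bp. The centers were 2 bp apart, and the ratio was 4.7. Within the lists the percentiles were 98 and 98.2, and no GCN2 KO peak was given to Eif3a at any distance. Besides TGATGCAA the window held TGATGGAA on the minus strand at 60795660 to 60795667.

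Eif3c, another core subunit of eIF3, had the strongest peak of all translation genes. It scored 518 in WT -Leu, rank 85 of 6374, lay 459 bp inside the gene in intron 2, and spanned chromosome 7 from 126565757 to 126566057. No other list held a peak for Eif3c. The remaining eIF3 peaks within 5 kb were weak and held no core. Eif3f had one in intron 1 with a score of 28 in WT -Leu, and Eif3l one in intron 2 with a score of 14 in WT +Leu.

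Eif4g2 encodes a relative of the scaffold eIF4G that does not bind the cap-binding protein eIF4E. Its peak, in WT -Leu only, covered coding exon 4 on chromosome 7 from 111080072 to 111080372, 2808 bp from the TSS, and scored 102. Eif4g3 encodes a scaffold of the eIF4F complex. It had a near peak in GCN2 KO -Leu only, with a score of 30, in a B4 SINE repeat that the list places 1168 bp upstream of the TSS.

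Eif2s2, the beta subunit of eIF2, had the peak closest to a TSS among the initiation factors. It lay 90 bp from the start on chromosome 2 from 154892666 to 154892966 and scored 45 in WT -Leu, the lowest score among the WT peaks with the core. A GCN2 KO -Leu peak 35440 bp upstream scored 36 and held no core. Eif2b1, the alpha subunit of eIF2B, had peaks in intron 4 with scores of 57 in WT -Leu, 3073 bp from the TSS, and 40 in GCN2 KO +Leu, 4340 bp from it. They are different sites, and the RefSeq start of the neighboring Gtf2h3 lay 3164 and 4431 bp from them.

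**Figure D2:**
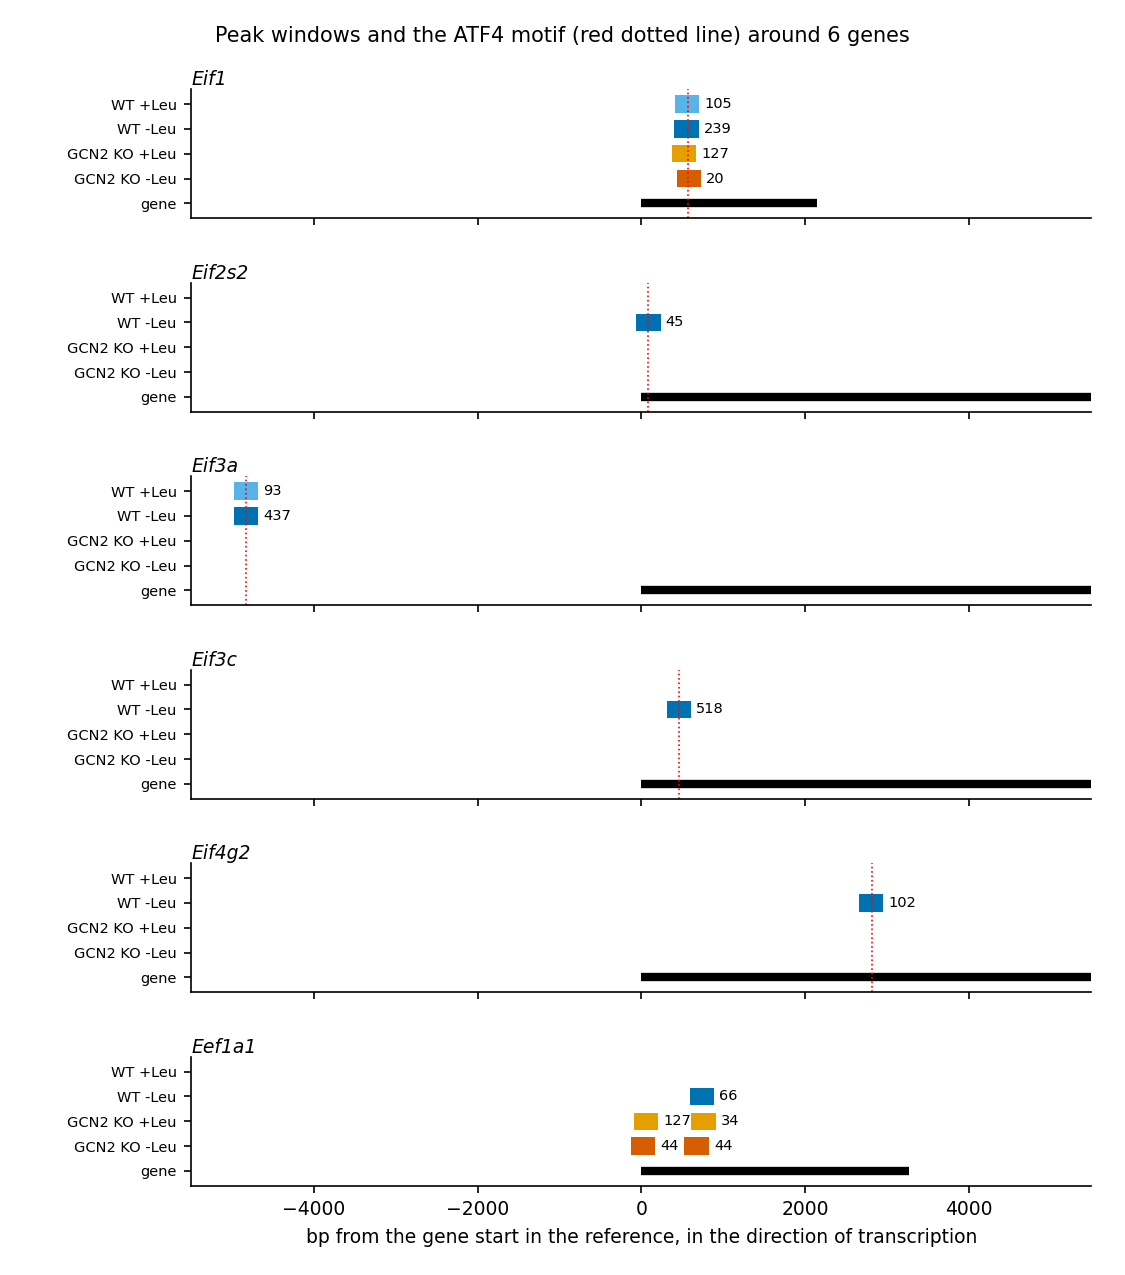
Peak windows (colored blocks, with their scores) in the 4 lists around 6 genes, drawn in bp from the RefSeq gene start in the direction of transcription, with the gene as a black bar and TGATGCAA as a red dotted line. The core lies near the middle of each window in the 5 initiation factor genes, while Eef1a1 has windows at its start and in intron 1 and no core.

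Eef1a1 encodes eEF1A1, which brings aminoacyl-tRNAs to the ribosome and is among the most abundant proteins of the cell. It was the gene with the most near peaks, 5, and they fell on 2 sites. The site in intron 1, an annotated CpG island on chromosome 9 between 78480813 and 78481196, scored 66 in WT -Leu cells and was not listed for WT +Leu cells, and in GCN2 KO cells it scored 34 with leucine and 44 without it. The site at the start of the gene, between 78481515 and 78481855, was listed in the GCN2 KO cells only and scored 127 with leucine and 44 without it. In GCN2 KO +Leu its rank, 20 of 3566, was shared with Eif1, and in GCN2 KO -Leu both Eef1a1 sites held rank 189 of 2672.

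Leucine deprivation therefore went with a higher score in intron 1 (ratio 1.29) and a lower one at the start (ratio 0.346) within the same pair of GCN2 KO lists. The common peaks of these lists had an interquartile range of 0.672 to 1.25, and both Eef1a1 values lay outside it, on opposite sides. The centers were 40 bp apart at the start site and at most 83 bp apart in the intron.

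Because these sites recurred without the core, 30 bases around a peak center are given for each, on the strand of the gene. No base is in capitals, since neither window held TGATGNAA.
Eef1a1 start, GCN2 KO +Leu, chr9:78481650-78481679: tggacgttctttttcgcaacgggtttgccg
Eef1a1 start, GCN2 KO -Leu, chr9:78481690-78481719: gagggtgggggagaacggtatataagtgcg
Eef1a1 intron 1, WT -Leu, chr9:78480968-78480997: agcccggtggagcgggcgggtgagtcaccc

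With 1 mismatch to TGATGCAA allowed, the intron site held TGTTGCAA within 50 bp of the center in 2 of its 3 peaks, on the minus strand (the mismatched core is in capitals).
Eef1a1 intron 1, chr9:78481011-78481040: ctcccgggcccTGTTGCAAggagctcaaaa

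A core with at most 1 mismatch was in 11 of the 29 near peaks (37.9%, 22.7 to 56) beside 17% of all near peaks. These 2 peaks, at 1 site, were the addition to the 9 exact ones. The exact core by itself gave 31% beside 7.07%, so the higher share cannot be read as one of mismatched cores. Near peaks without an exact core were not compared. Beyond 5 kb the share with at most 1 mismatch was 13% (6.42 to 24.4), beside 12.5% of all peaks. The intron sequence also reads tgagtca, a form of the AP-1 element TGANTCA, which was looked for only after the sequence had been seen. TGANTCA lay within 50 bp of the center in 4 of 83 peaks (4.82%, 1.89 to 11.7), among them Eef1a1 in WT -Leu and GCN2 KO +Leu, beside 3.28% of all peaks, which the interval includes. Within 5 kb it was 3 of 29 (10.3%, 3.58 to 26.4), beside 2.77% of all near peaks, and 2 of these 3 are the Eef1a1 intron site.

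The other elongation factor peaks within 5 kb were single and weak. Eef1a2, the form of eEF1A found mainly in muscle and neurons, scored 36 in GCN2 KO -Leu in intron 1. Eef1e1 scored 30 in WT +Leu in an LTR repeat 2849 bp upstream. Eef2k, whose kinase slows elongation by phosphorylating eEF2, scored 24 in GCN2 KO +Leu in an LTR repeat of intron 1.

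The genes named Rpl or Rps had 33 peaks at 18 genes, of which 7 peaks, at 5 genes with Rps19bp1 among them, lay within 5 kb. Rpl7, a large-subunit protein, carried the strongest. Its peak scored 218 in WT -Leu, rank 277 of 6374, at 254 bp upstream of the TSS in the promoter, on chromosome 1 from 16104537 to 16104837. No other list had a peak for Rpl7, and its window held no TGATGNAA. The start of Rdh10 lay 1195 bp from the same peak.

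Rpl13a, a large-subunit protein, had peaks upstream of its start in 2 lists. The WT -Leu peak, 828 bp from the TSS, scored 94, and the GCN2 KO -Leu peak, 2390 bp from it, scored 58. They did not overlap. The latter was the strongest translation gene peak of its list, rank 65 of 2672, and the lists annotate it at the end of another transcript. The Rpl13a peaks were thus listed without leucine in both genotypes and not with it, at different positions.

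The remaining near peaks were weak. Rpl3l, a relative of Rpl3 found in muscle, scored 27 in WT -Leu and 18 in GCN2 KO +Leu at separate sites. Rps10, a small-subunit protein, scored 26 in GCN2 KO +Leu in a CpG island 3876 bp upstream. Rps19bp1 scored 21 in WT +Leu in intron 2. In either -Leu list, no small-subunit gene had a near peak (0 of 35, 0 to 9.89%).

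**Figure D3:**
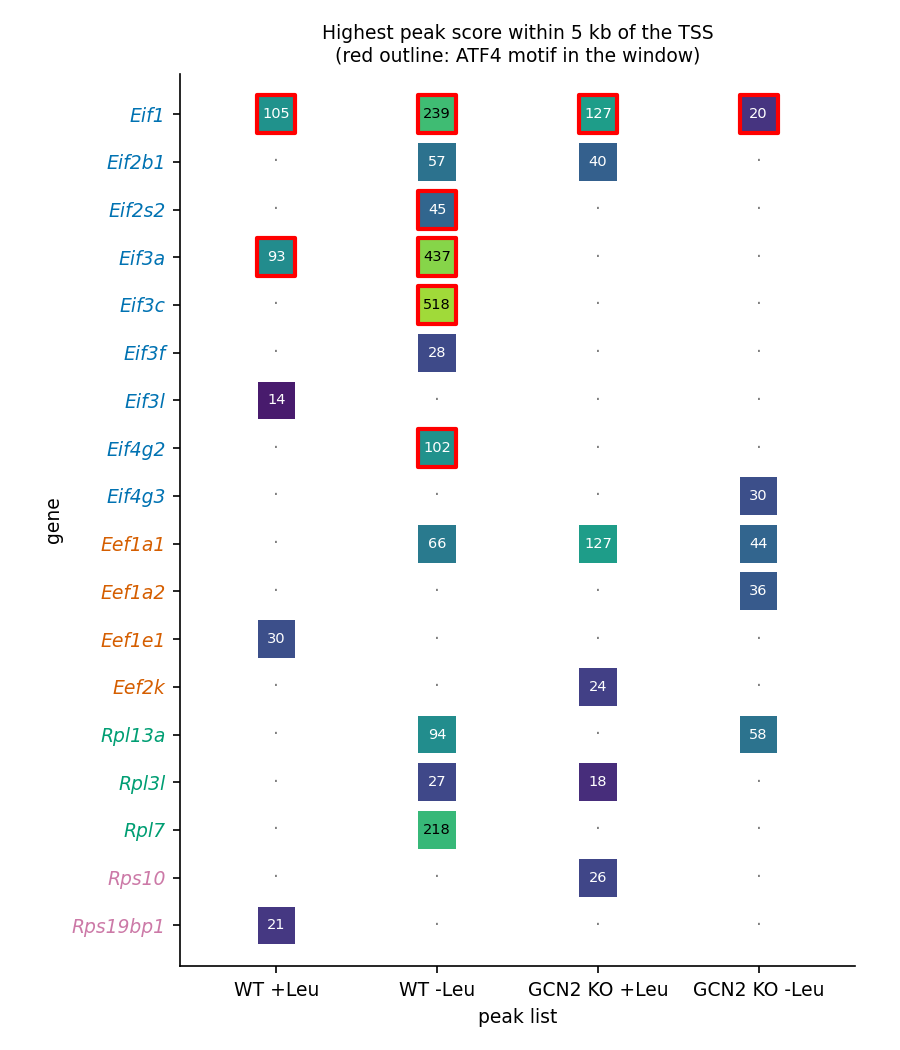
Highest ATF4 peak score within 5 kb of the TSS for the 18 translation genes with such a peak (gene names colored by group) in each list, with a dot where none was listed and a red outline where the window held TGATGCAA. The outlined scores are all at initiation factors and range from 20 to 518, and the strongest score without an outline is 218 at Rpl7.

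The nearest gene hides part of the picture where gene starts lie close together. RefSeq placed 5 further coding translation genes within 5 kb of a peak that the lists give to a neighbor. Eif1ad, a relative of the initiation factor eIF1A, had its start 251 bp from a WT -Leu peak with a score of 37 that is listed for Banf1, and a WT +Leu peak with a score of 26 lay 3790 bp upstream. Rpl18, a large-subunit protein, started 1612 bp from a WT -Leu peak with a score of 37 listed for Sphk2. Eif3k, a subunit of eIF3, lay 4948 bp from a GCN2 KO +Leu peak with a score of 29. A WT -Leu peak with a score of 22 lay 4651 bp from the shared start of Eef1akmt4 and its read-through transcript. None of these held TGATGCAA, while the windows at Rpl18 (WT -Leu) and upstream of Eif1ad (WT +Leu) held a match to TGATGNAA. Another 17 names were pseudogenes of ribosomal proteins or Eef1a1.

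Scores within 5 kb were higher than those beyond it in WT -Leu. The median score of the near peaks was 30 with leucine and 94 without it in WT cells, where all near peaks had medians of 29 and 30. In GCN2 KO cells it was 34 and 40, where all near peaks had a median of 29 in both lists. Beyond 5 kb the medians at translation genes were 28 in both WT lists and 32 and 28.5 in the GCN2 KO lists. Of the near peaks, 2 of 5 in WT +Leu, 5 of 11 in WT -Leu, 2 of 7 in GCN2 KO +Leu and 3 of 6 in GCN2 KO -Leu belonged to the strongest 10% of their list. Of the 54 peaks beyond 5 kb, 1 did, at Rplp1 in GCN2 KO +Leu.

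The near share of the peaks was above that of the whole list in each condition. It was 21.7% (9.66 to 41.9) in WT +Leu, where 16.7% of all peaks lay within 5 kb of a TSS. In WT -Leu it was 45.8% (27.9 to 64.9) against 18.4%, in GCN2 KO +Leu 35% (18.1 to 56.7) against 16.6%, and in GCN2 KO -Leu 37.5% (18.5 to 61.4) against 15.9%. The intervals exclude the share of the whole list in 3 of the conditions and include it in WT +Leu. They treat each peak as independent, although Eef1a1 gave 2 near peaks in each GCN2 KO list. The near peaks there were 7 at 6 genes with leucine and 6 at 5 genes without it. Shares with each gene counted once were not computed, so the exclusion in the GCN2 KO lists may rest on that gene. At the border of the window, the Eif3a peaks lay just inside it, and the nearest peaks outside were at 6169 bp for Eif4a3 (score 23, WT -Leu), 6340 bp for Rpl23 (score 41, GCN2 KO -Leu) and 6758 bp for Eif2b2 (score 42, GCN2 KO +Leu).

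The groups differed in where their peaks lay. Of 34 initiation factor peaks 14 were near, and of 16 elongation factor peaks 8. By name, large-subunit proteins had 5 of 17 and small-subunit proteins 2 of 16 within 5 kb, the latter at Rps10 and Rps19bp1. No small-subunit peak lay within 1 kb. A CpG island was annotated for 8 of the 29 near peaks (27.6%, 14.7 to 45.7) against 3.57% of all near peaks. These belonged to 3 genes, with Eif1 giving 4 peaks, the Eef1a1 intron 3 and Rps10 1.

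Beyond 5 kb the scores stayed between 16 and 58. No peak there coincided with one of another list (centers 300 bp or less apart), as 6.37% of all peaks did, a share that counts near peaks too. The strongest in WT +Leu were Eefsec and Rpl31 with 45 each and Eef2k with 42. In WT -Leu they were Rps24 with 58 and Rpl31 and Rps15a with 47 each, and in GCN2 KO +Leu Rplp1 with 43 and Eif2b2 and Rps24 with 42 each. In GCN2 KO -Leu they were Rpl23 with 41, Eif2s2 with 36, and Eif1 and Eif4g3 with 35 each. Eefsec encodes the elongation factor for selenocysteine, Rplp1 a protein of the ribosomal stalk, and the others named Rpl or Rps are structural proteins of the subunits. The most distant peak was given to Rps15a from 309450 bp.

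**Figure D4:**
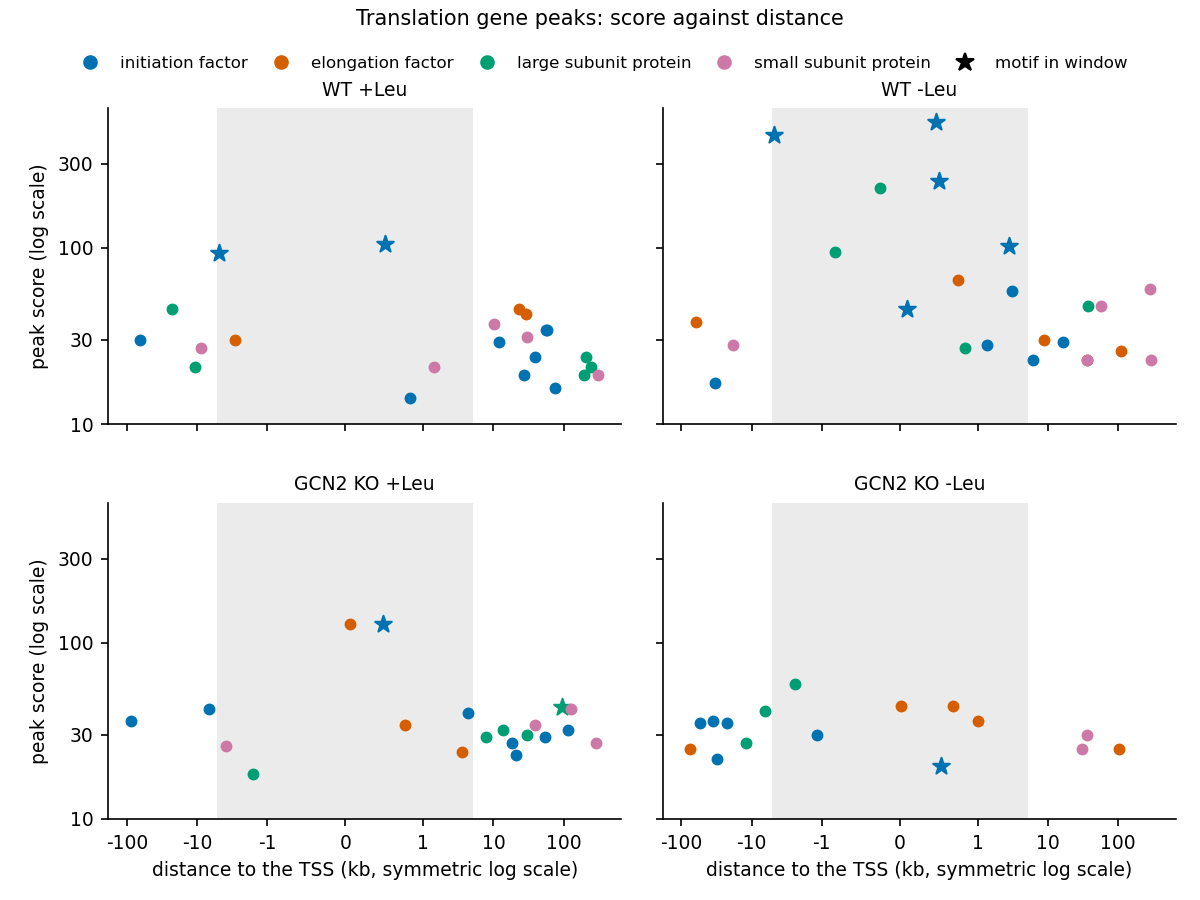
Score (log scale) against distance to the TSS (kb, symmetric log scale) for the 83 peaks, with 1 panel for each list, colors for the groups, stars for windows with TGATGCAA and gray for the 5 kb window. Scores over 58 are all inside the gray window, and all but 1 of the stars are initiation factor peaks there.

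TGATGCAA occurred in 1 of the 54 distant windows (1.85%, 0.328 to 9.77), that of the Rplp1 peak in GCN2 KO +Leu. The interval includes the 4.97% of all windows in the lists, a share that counts near windows too. With any base at the N, matches to TGATGNAA were also in the Eef1e1 peak of GCN2 KO -Leu (score 25, 74947 bp upstream) and the Rps14 peak of WT -Leu (score 28, 18693 bp upstream).

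Recurrence across the lists rested on 3 genes. Of the 40 genes, 19 had a peak in 1 list only, 13 in 2, 6 in 3 and 2 in all 4. Of the 21 genes in at least 2 lists, Eif1, Eif3a and Eef1a1 had a site in common (centers 300 bp or less apart), and the other 18 had peaks at different places. These gene counts were not made for all 8863 listed genes, so nothing particular to translation genes can be read from them. A partner in another list was found for 11 of 83 peaks (13.3%, 7.56 to 22.2) against 6.37% of all peaks. They were 11 of the 29 near peaks (37.9%, 22.7 to 56) against 12.3% of all near peaks. Of the 54 distant peaks 0 had a partner (0 to 6.64%), and that interval includes the 6.37% of all peaks, a share that counts near peaks too. The 11 peaks belong to these 3 genes.

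Between leucine conditions, 2 of 23 WT +Leu peaks had a WT -Leu partner (8.7%, against 6.35% of that list), and 3 of 20 GCN2 KO +Leu peaks had a GCN2 KO -Leu partner (15%, against 2.75%).

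**Figure D5:**
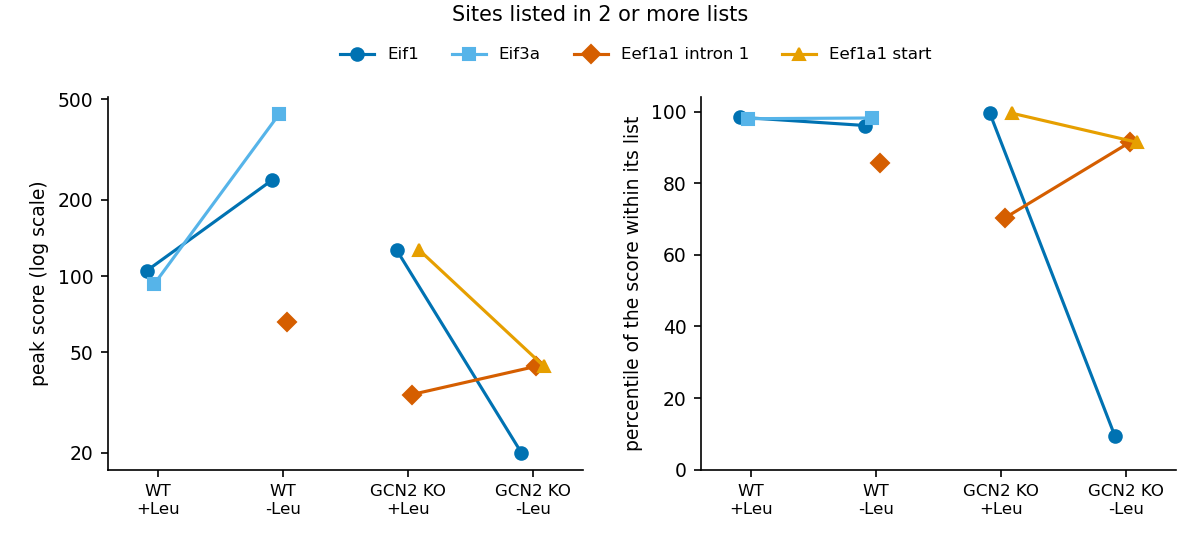
Peak score (left, log scale) and percentile of the score within its own list (right) at the 4 sites found in at least 2 lists, with lines joining the +Leu and -Leu values of a genotype and no point where a site was not listed. Eif1 goes from 127 to 20 in GCN2 KO. The higher Eif1 and Eif3a scores without leucine in WT are not seen on the percentile scale, where the WT +Leu values are already near the top.

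The number of peaks at translation genes was close between the leucine conditions of a genotype, within wide intervals. There were 23 in WT +Leu and 24 in WT -Leu, a ratio of 1.04 (0.593 to 1.83), where all peaks gave 1.31. In GCN2 KO there were 20 and 16, a ratio of 0.8 (0.419 to 1.53), where all peaks gave 0.749. Within 5 kb the WT count went from 5 to 11, a ratio of 2.2 (0.799 to 6.06) against 1.45 for all near peaks, and the GCN2 KO count from 7 to 6, a ratio of 0.857 (0.302 to 2.43) against 0.721. By group, the WT ratio was 1 for initiation factors, 1.67 for elongation factors and 0.9 for ribosomal proteins. The GCN2 KO ratios were 0.75, 1.67 and 0.556. All of these intervals include 1 and the ratio of all peaks of that genotype.

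Other parts of the translation machinery were counted in the same way. None of the 9 genes of termination and ribosome recycling was given a peak at any distance. The share of all coding genes with a peak at any distance was not computed. Mitochondrial translation factors (9 genes) and other TOP mRNAs (11 genes) had 3 and 2 peaks, none of them within 5 kb. Sets of 9 and 11 genes are too small to show a share below the 9.77% of coding genes with a near peak. Of 78 mitochondrial ribosomal protein genes, 3 had a near peak (3.85%, no interval computed, against 9.77% of coding genes). These were Mrps23 in WT +Leu (scores 30 and 27), Mrpl12 in WT -Leu (30) and Mrpl38 in WT -Leu (34) and GCN2 KO -Leu (13).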

How the data were processed

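ATF4 ChIP-seq peak lists of 4 libraries were used. Per the methods and labels, the authors aligned 50 bp reads to mm10 with BWA 0.7.12, called peaks with MACS2 2.1.0 at a false discovery rate of 0.05, with input of the matching genotype, and annotated summit windows with HOMER 4.7. The lists give no read depth. The deposited score of each peak is the authors' whole number, not normalized between libraries. The deposited distance is in bp to the nearest TSS, and GC and CpG content are deposited as a fraction of the bases. The GC fraction of the peaks equalled that of the GRCm38.p6 reference for all 4839, 6362, 3549 and 2658 peaks on assembled chromosomes (tolerance 2e-06), and a further 11, 12, 17 and 14 peaks on contigs have no sequence here.

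From the lists were computed the member peaks, genes within 5 kb, partners (centers 300 bp or less apart), motif matches on both strands and percentiles of the score (its mean rank from the lowest, as a percent of the list). Gene names matched RefSeq by Entrez ID for 40 of 40 genes. The members, gene lists and rules were chosen with earlier results of these data known. Named were every gene with a peak within 5 kb, the 3 strongest peaks beyond it in each list with their ties, and any peak with the motif or a partner. Shares carry 95% Wilson intervals. With 1 library per condition, no test was made. Alternatives were a score of 30 or more, assembled chromosomes, a strict gene list, TSS windows of 1 and 10 kb, all RefSeq gene starts, the strongest peaks, other partner distances and other motif settings. The scripts were tested on simulated lists. Python 3.11.15, numpy 2.4.6, pandas 2.3.3, scipy 1.17.1 and matplotlib 3.10.9 were used. The 2 input libraries were not analysed here. The sequence at 1 distant peak is not reported here.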

Additional observations from a re-analysis of the deposited data

Results flagged for a closer look

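In 4 measures, leucine deprivation went with a higher value in WT cells and a lower one in GCN2 KO cells. The ratio of -Leu to +Leu was 1.04 in WT and 0.8 in GCN2 KO for the number of translation gene peaks, 2.2 and 0.857 for those within 5 kb, and 3 and 0.5 for ribosomal protein peaks within 5 kb. It was 2.28 and 0.157 for the score of the Eif1 peak. The WT value at Eif1 is close to the median of 2.36 over all common WT peaks, and on percentiles within the lists it is 0.977, so that the direction in WT cells reverses. The WT +Leu percentile was already 98.4, which left almost no room for a higher one. The difference between the genotypes was not tested, since each condition is 1 library. The ratios of all listed peaks, 1.31 in WT and 0.749 in GCN2 KO, go the same way, and how much of these values follows from them was not tested. The ribosomal protein values rest on 1 peak against 3 and on 2 against 1, taken by gene name. The 1 peak in WT +Leu was at Rps19bp1, which is not a ribosomal protein. The WT ratio of 3 therefore holds for the name group only.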

How the results depend on the processing

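Of 52 alternative values of counts and ratios, 36 stayed within 1.5 times the reported value and 16 moved further. A score of 30 or more left 11 and 14 translation gene peaks in WT cells with and without leucine, and 12 and 10 in GCN2 KO cells. It left 3 genes within 5 kb in WT +Leu and 3 in GCN2 KO +Leu. A TSS window of 1 kb gave 2, 7, 2 and 2 genes in the same order, and any RefSeq gene start within 5 kb gave 11, 22, 10 and 9, mostly by adding pseudogenes, so the number of near genes depends on the window and on which starts are counted. WT -Leu had the most near genes under each of these settings. It also had the most near genes of any kind, with 776, 1111, 577 and 413 in the same order, so this place is not particular to translation genes. TGATGCAA anywhere in the window gave 2 GCN2 KO +Leu peaks, and any base at position 6 gave 2 in GCN2 KO -Leu. The ratio of peaks stayed at 1.08 to 1.27 in WT and 0.833 to 0.941 in GCN2 KO, and partners numbered 2 and 3 at 100, 300 and 1000 bp. With percentiles in place of scores, an alternative chosen after seeing the data, the Eif1 ratio was 0.977 in WT, which reverses its direction, and 0.0956 in GCN2 KO. The Eif3a ratio was 1. The WT +Leu percentiles, 98.4 at Eif1 and 98 at Eif3a, were already near the top of the scale. The WT ratios thus had almost no room above 1 and cannot show whether a higher score without leucine holds. No paired analysis was possible because each condition is 1 library and the labels carry no replicate numbers. The depth of the libraries is unknown, which limits every comparison of counts between lists.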
